A study of Homo sapiens with 12 samples.

Results

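Described here are USP51 and 9 genes for enzymes that add or remove ubiquitin on histones H2A and H2B, or for their partners. They are 10 of the 17818 genes in the deposited table, and all 10 were found in it by gene identifier. They are the deubiquitinase genes USP51, USP22 and USP27X, the partner genes ATXN7L3, ATXN7L3B, ENY2 and ATXN7, the H2B ligase genes RNF20 and RNF40, and the H2A ligase gene RNF168. USP51 is the overexpressed gene itself, so its difference between groups checks the labels and is not a response.

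RNA was sequenced from the human cell lines SW480 and HCT116, which were derived from colorectal cancers, with 3 libraries in each of 4 groups. The groups were SW480 with USP51 overexpressed (SW480 USP51), SW480 with the control vector (SW480 NC), HCT116 with USP51 overexpressed (HCT116 USP51) and HCT116 with the control vector (HCT116 NC). All were cultured in DMEM with fetal bovine serum. The labels do not give the vector, its promoter, whether the construct carries untranslated sequence, or whether cells came from 1 clone or a pool. In bulk RNA, a smaller share of cells that carry the construct and less USP51 RNA per cell cannot be told apart.

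Every value below is the authors' mean of a group. Columns of single libraries carry codes that match no label and were not used, so the spread between replicates is unknown and no comparison has a p-value. The means are named by line with C or E, which were read as control and USP51 overexpression, and every direction within a line rests on that reading. Mean totals were 15506686 to 15920306 estimated counts. Count ratios divide each mean count by its group's total first. The interval in parentheses after a count ratio is a 95% exact interval made as if each mean were a single library. It holds counting error alone and says nothing of the spread between replicates, even where it excludes 1.

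A single ubiquitin on histone H2B marks transcribed chromatin and is placed by the RNF20 and RNF40 ligase. RNF168 ubiquitinates H2A near DNA double-strand breaks, where the mark helps to recruit repair proteins. SAGA, a transcription coactivator complex, removes ubiquitin from H2B through a module of USP22, ATXN7, ATXN7L3 and ENY2. USP27X and USP51 are relatives of USP22 that also work with ATXN7L3 and ENY2 but without ATXN7, and USP51 has also been described as an enzyme that removes the RNF168 mark from H2A.

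The 3 deubiquitinase genes are related in sequence, which bears on whether reads of 1 could be counted for another. USP51 and USP27X lie on chromosome X and USP22 on chromosome 17. In GENCODE release 29 transcripts, the coding sequence had 2133 bases in USP51, 1575 in USP22 and 1314 in USP27X. Aligned parts of USP51 were 74.7% identical to USP22 and 81.7% identical to USP27X. The stretches below are the most alike 120-base window of an alignment of the 3 coding sequences. It lies in the catalytic domain around the histidine box, and capitals mark the 20 positions at which the 3 genes are not all the same.
USP51, minus strand of chrX:55486879-55486998 (GRCh38), exonic and coding: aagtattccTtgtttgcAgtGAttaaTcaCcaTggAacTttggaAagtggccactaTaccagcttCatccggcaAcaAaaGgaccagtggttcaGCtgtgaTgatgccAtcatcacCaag
USP22, minus strand of chr17:21004234-21004929 (GRCh38), coding parts of 2 exons: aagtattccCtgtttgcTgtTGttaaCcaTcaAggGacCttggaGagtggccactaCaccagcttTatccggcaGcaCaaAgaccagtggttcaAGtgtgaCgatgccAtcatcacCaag
USP27X, plus strand of chrX:49881394-49881513 (GRCh38), exonic and coding: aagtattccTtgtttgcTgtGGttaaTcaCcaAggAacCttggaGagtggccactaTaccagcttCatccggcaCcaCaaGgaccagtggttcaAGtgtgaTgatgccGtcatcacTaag

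Even in this window USP51 differed from USP22 at 18 bases and from USP27X at 11. Across the whole coding sequence, USP51 shared no run of 31 bases with USP22. With USP27X it shared 6 of its 2103 runs of that length, all within the longest common stretch of 36 bases. That stretch lies on the minus strand of chrX:55486821-55486856 in USP51 and on the plus strand of chrX:49881536-49881571 in USP27X (GRCh38). It is printed here as the longest coding run that USP51 shares with either gene. Untranslated parts of the transcripts were not compared.
USP51 and USP27X: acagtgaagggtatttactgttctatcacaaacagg
No exon of another annotated gene overlapped the USP51 transcript. Nearly all of the USP51 coding sequence was thus distinct from USP22 and USP27X at that length.

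USP51 (NCBI gene 158880, chromosome X, 55484616 to 55489848, GRCh38) stood at 25.7 TPM in SW480 USP51, against 0.513 TPM in SW480 NC. TPM is an abundance per transcript length, scaled to the same total in each group. It stood at 40.8 TPM in HCT116 USP51 and was listed at 0 in HCT116 NC. The mean counts were 1168 and 1706 in SW480 USP51 and HCT116 USP51, against 22.3 in SW480 NC and 0 in HCT116 NC. A mean of 0 requires 0 in each library averaged, and a floor of 3 counts there corresponds to 0.0703 TPM. The count ratio was 52.1 (34.3 to 83.5) in SW480. In HCT116 the count ratio was 580 with that floor, a chosen value, taken for the control mean. The exact interval, made from the control count of 0, began at 471.

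Between the overexpressing groups, USP51 was lower in SW480 USP51 than in HCT116 USP51, with a count ratio of 0.667 (0.618 to 0.719). Nearly all of it was assigned to the curated transcript NM_201286.3, which took 99.3% of USP51 TPM in SW480 USP51 and 100% in HCT116 USP51. The GENCODE model of that transcript has 4407 bases, of which 2133 are coding. TPM divides by the length of a transcript model, so a construct with the coding part alone would be given too low a TPM by a factor of up to 2.07. Comparisons of USP51 TPM with other genes carry that uncertainty. So do ratios of USP51 over NC, because USP51 RNA in NC does not come from the construct. The comparison of SW480 USP51 with HCT116 USP51 does not carry it where the construct is the same.

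With TPM taken over the full transcript model, the overexpression placed USP51 among the upper of the 10 genes, near ATXN7L3. A construct with the coding part alone would place it higher, and the counting intervals below do not hold that uncertainty. In order of TPM, USP51 was the fourth of the 10 genes in SW480 USP51 and in HCT116 USP51, and the last in SW480 NC and in HCT116 NC. USP22 led in all 4 groups and RNF40 followed. In HCT116 USP51, the level was 42.8 TPM for ATXN7L3 (40.6 to 45.1, counting error), 40.8 TPM for USP51 (38.9 to 42.8) and 37.6 TPM for ENY2 (35.3 to 40.0). The counting intervals of these neighbours overlapped. In SW480 USP51 the level was 27.8 TPM for ATXN7L3 (26.1 to 29.6) and 25.7 TPM for USP51 (24.2 to 27.2), which also overlapped, while RNF20 came next at 21.0 TPM (19.6 to 22.5) without overlap.

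**Figure D1:**
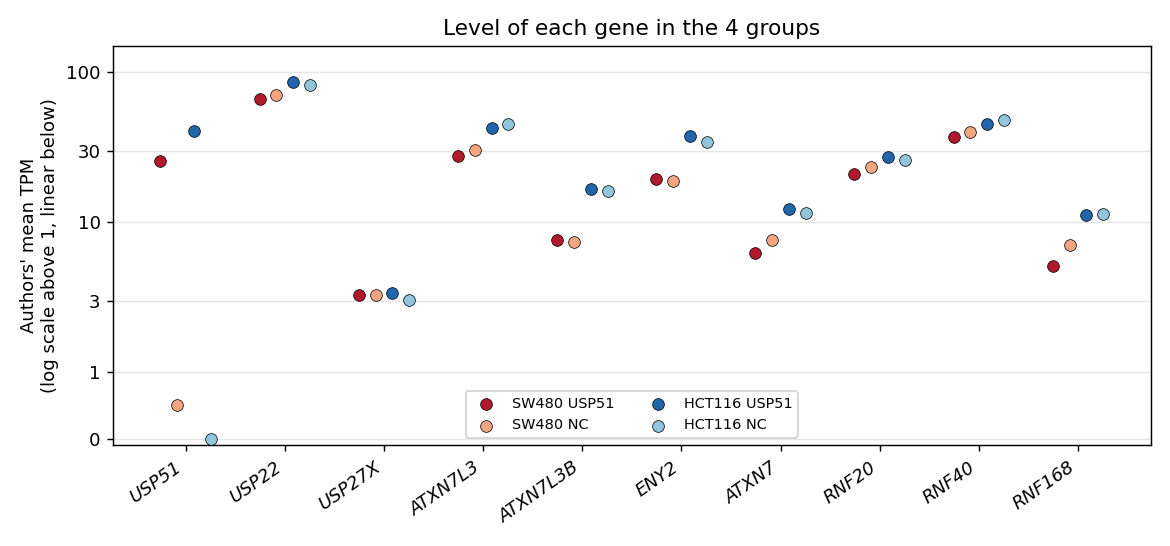
Authors' mean TPM of each of the 10 genes (log axis above 1, linear below) in SW480 USP51, SW480 NC, HCT116 USP51 and HCT116 NC, 1 point per group mean with no error because libraries were not used. USP51 sits at 25.7 and 40.8 TPM with overexpression and at 0.513 and 0 TPM in controls, while the 4 points of USP22, USP27X, RNF20 and RNF40 lie close together.

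USP22 (NCBI gene 23326, chromosome 17, 20999596 to 21043419), the deubiquitinase of SAGA, was the most abundant of the 3 related enzymes in every group. It stood at 66.4 TPM in SW480 USP51 against 70.7 TPM in SW480 NC, and at 86.2 TPM in HCT116 USP51 against 82.6 TPM in HCT116 NC. The counts gave ratios of 0.970 (0.926 to 1.02) in SW480 and 1.02 (0.982 to 1.07) in HCT116. USP27X (NCBI gene 389856, chromosome X, 49879484 to 49882558) was far lower, at 3.03 to 3.38 TPM over the 4 groups. Its mean counts were 101.3 in SW480 USP51, 95.3 in SW480 NC, 95.7 in HCT116 USP51 and 89.7 in HCT116 NC. At this depth the USP27X ratios could not be told from 1, at 1.04 (0.781 to 1.40) in SW480 and 1.09 (0.808 to 1.47) in HCT116.

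USP51 made the sum of the 3 related genes higher, while USP22 and USP27X lay near their control levels. The 3 genes together came to 95.4 TPM in SW480 USP51 and 74.5 TPM in SW480 NC, a ratio of 1.28. They came to 130.4 TPM in HCT116 USP51 and 85.6 TPM in HCT116 NC, a ratio of 1.52. USP51 made up 26.9% of the sum in SW480 USP51, against 0.689% in SW480 NC. Its part was 31.3% in HCT116 USP51 and 0% in HCT116 NC, where 0 of 4360 counts for the 3 genes allow a share of up to 0.0846% (exact binomial bound, of counts). USP22 was the larger part, at 69.6% in SW480 USP51 and 66.1% in HCT116 USP51. USP51 was at 0.387 of the USP22 level in SW480 USP51 and at 0.473 of it in HCT116 USP51, and at 7.82 and 12.1 times the USP27X level in these groups. In the overexpressing groups, these sums, shares and levels take the full transcript model of USP51. The part of USP51 would be larger for a construct with the coding part alone.

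**Figure D2:**
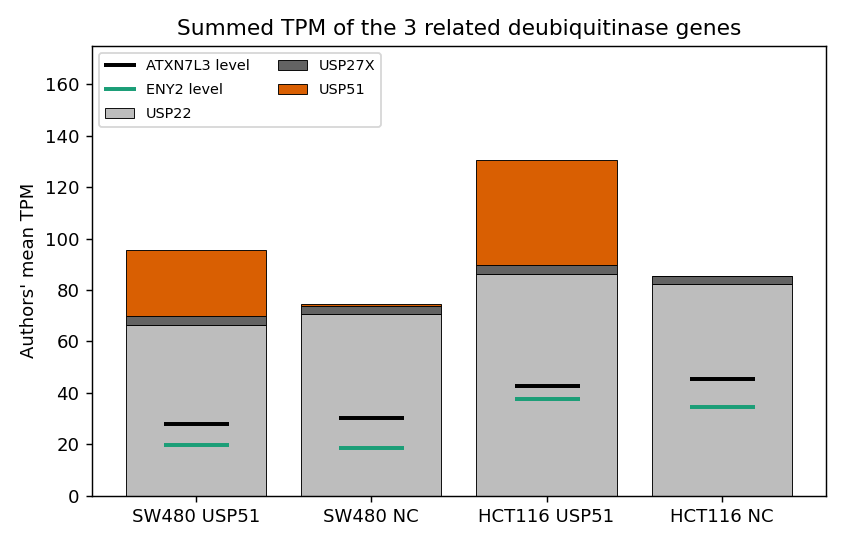
Stacked bars of the authors' mean TPM of USP22, USP27X and USP51 in SW480 USP51, SW480 NC, HCT116 USP51 and HCT116 NC, with the levels of ATXN7L3 (black line) and ENY2 (green line) in the same unit. The sum is 95.4 against 74.5 TPM in SW480 and 130.4 against 85.6 TPM in HCT116. With TPM over its full transcript model, USP51 alone comes close to the ATXN7L3 line in each overexpressing group.

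The partners that USP22, USP27X and USP51 share lay close to their control levels. ATXN7L3 (NCBI gene 56970, chromosome 17, 44191805 to 44199884) encodes the adaptor that all 3 enzymes need for activity. It stood at 27.8 TPM in SW480 USP51 against 30.3 TPM in SW480 NC, and at 42.8 TPM in HCT116 USP51 against 45.3 TPM in HCT116 NC. The count ratios were 0.947 (0.868 to 1.03) in SW480 and 0.926 (0.862 to 0.996) in HCT116, slightly below 1 in each line. ENY2 (NCBI gene 56943, chromosome 8, 109334347 to 109345954), a small subunit that also serves in mRNA export, stood at 19.6 TPM in SW480 USP51 against 18.7 TPM in SW480 NC. In HCT116 it stood at 37.6 TPM with USP51 and 34.5 TPM in NC. Its count ratios were 1.08 (0.956 to 1.22) in SW480 and 1.07 (0.976 to 1.17) in HCT116, slightly above 1 with intervals that include it.

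As a ratio of TPM values, the 3 enzymes together came to 3.43 per ATXN7L3 in SW480 USP51 and 2.46 in SW480 NC. The same ratio was 3.05 in HCT116 USP51 and 1.89 in HCT116 NC. USP51 alone was at 0.924 per ATXN7L3 in SW480 USP51 and 0.954 in HCT116 USP51, against 0.0169 in SW480 NC and 0 in HCT116 NC. Set against ENY2, USP51 was at 1.31 in SW480 USP51 and 1.09 in HCT116 USP51. These are ratios of RNA levels per length, and protein was not measured. With overexpression they would be higher for a construct with the coding part of USP51 alone.

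ATXN7L3B lay close to its control level in both lines, and ATXN7 lay below it in SW480. ATXN7L3B (NCBI gene 552889, chromosome 12, 74537835 to 74545430) encodes a short cytoplasmic protein that binds ENY2 and competes with ATXN7L3 for it. It stood at 7.56 TPM in SW480 USP51 against 7.40 TPM in SW480 NC, and at 16.6 TPM in HCT116 USP51 against 16.2 TPM in HCT116 NC, with count ratios of 1.05 (0.939 to 1.18) and 1.01 (0.930 to 1.09). ATXN7 (NCBI gene 6314, chromosome 3, 63863144 to 64003462), the subunit that anchors the module in SAGA, stood at 6.19 TPM in SW480 USP51 against 7.66 TPM in SW480 NC. Its count ratio there was 0.838 (0.736 to 0.954), below 1 by more than counting error. In HCT116 ATXN7 stood at 12.2 TPM with USP51 against 11.6 TPM in NC, with a count ratio of 1.03 (0.930 to 1.14).

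ATXN7L3B resembles part of ATXN7L3, so their coding sequences were also compared. Its coding sequence has 291 bases, of which 178 aligned to ATXN7L3 at 84.3% identity. The coding part is a small portion of the ATXN7L3B model, whose transcript has 7604 bases.

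The H2B ligase genes lay close to their control values in each line. RNF20 (NCBI gene 56254, chromosome 9, 101533853 to 101563344) stood at 21.0 TPM in SW480 USP51 against 23.4 TPM in SW480 NC, and at 27.2 TPM in HCT116 USP51 against 25.9 TPM in HCT116 NC. The count ratios were 0.926 (0.842 to 1.02) and 1.03 (0.944 to 1.13). RNF40 (NCBI gene 9810, chromosome 16, 30761612 to 30776307), its obligate partner, stood at 37.2 TPM in SW480 USP51 against 39.8 TPM in SW480 NC, and at 45.2 TPM in HCT116 USP51 against 48.0 TPM in HCT116 NC. The count ratio of RNF40 was 1.01 (0.947 to 1.08) in SW480, on the other side of 1 from its TPM values, and 0.929 (0.875 to 0.987) in HCT116. RNF20 stayed below RNF40 in all 4 groups, at a TPM ratio of 0.564 in SW480 USP51, 0.590 in SW480 NC, 0.602 in HCT116 USP51 and 0.539 in HCT116 NC.

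RNF168 showed the largest difference of the 9 genes other than USP51. RNF168 (NCBI gene 165918, chromosome 3, 196468783 to 196503768), the H2A ligase, had 1 transcript in the table. It stood at 5.14 TPM and 287 counts in SW480 USP51, against 7.09 TPM and 377 counts in SW480 NC. The count ratio was 0.747 (0.639 to 0.873), and the log2 ratio of TPM + 1 was -0.40. In HCT116 the level was nearly the same, at 11.2 TPM and 573 counts with USP51 against 11.3 TPM and 606 counts in NC, a count ratio of 0.965 (0.859 to 1.08). On the TPM + 1 scale it fell short of 1.5-fold. At a threshold of 25% higher, or the same ratio lower, it was the only one of the 9 to pass in SW480, where 8.75% of all genes passed in either direction.

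Differences were counted on log2(TPM + 1) among genes that reached 1 TPM in either group of a comparison, a scale that understates differences of low genes. On it, 1 of the 10 genes differed by at least 1.5-fold in SW480 and 1 of 10 in HCT116, in each case USP51. Of all genes, 1.42% passed that fold in either direction in SW480 and 2.11% in HCT116. Of the 9, 3 lay above their control value in SW480 and 6 below, with a median log2 ratio of -0.09. In HCT116 6 lay above and 3 below, with a median of 0.06. Under other scalings RNF40 in SW480 and ATXN7L3B in HCT116 changed side. The median over all genes measured leaned the same way, at -0.04 in SW480 and 0.04 in HCT116, with 61.1% of genes below their control value in SW480 and 60.8% above it in HCT116.

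Counting intervals excluded 1 for 2 of the 9 genes in each line. Over all genes measured they did so for 27.8% in SW480 and 28.8% in HCT116, so 2 of 9 is near the background and sets these genes apart in neither line. The genes were ATXN7 and RNF168 in SW480 and ATXN7L3 and RNF40 in HCT116, all below their control value. ATXN7 and RNF168 had intervals that included 1 in HCT116, and ATXN7L3 and RNF40 had intervals that included 1 in SW480.

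**Figure D3:**
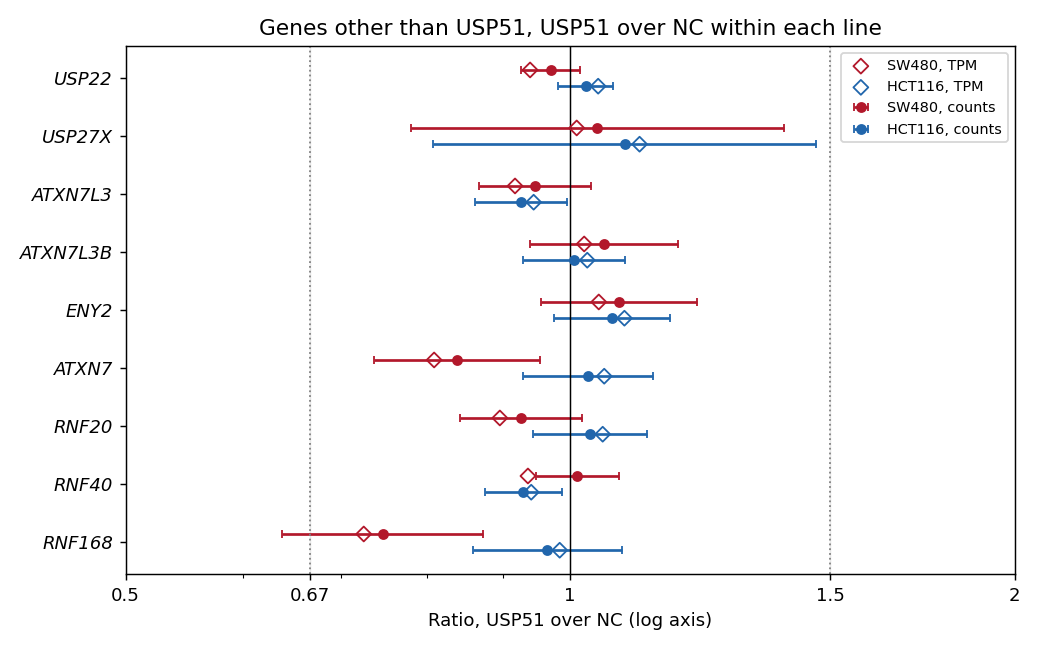
Ratio of USP51 over NC on a log axis for the 9 genes other than USP51, in SW480 (red) and HCT116 (blue). Filled points are ratios of counts per total count with 95% exact intervals for counting error, open diamonds are TPM ratios, and dotted lines mark 1.5-fold. RNF168 in SW480, at a count ratio of 0.747, lies farthest from 1, and no point crosses a dotted line.

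The response was compared between lines as the SW480 log2 ratio minus the HCT116 log2 ratio, with no test. USP51 was the gene of the 10 at least 1.5-fold apart, at -1.25, where the control level of HCT116 is 0 and the size depends on the pseudocount. Among all 11332 genes measured in both lines, 4.41% were that far apart. RNF168 followed at -0.38 and ATXN7 at -0.34, and the other 7 lay between -0.22 and -0.01.

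Levels were also compared between the lines. In the controls, 8 of 9 measured genes were lower in SW480 NC than in HCT116 NC, beside 53.3% of all genes, and the median log2 ratio was -0.54, against -0.08 over all 13033 genes. ATXN7L3B differed most, at 7.40 TPM in SW480 NC against 16.2 TPM in HCT116 NC, a count ratio of 0.461 (0.417 to 0.509). ENY2 was at 18.7 TPM in SW480 NC against 34.5 TPM in HCT116 NC, a count ratio of 0.547 (0.490 to 0.609). RNF168 was at 7.09 TPM in SW480 NC against 11.3 TPM in HCT116 NC, a count ratio of 0.630 (0.553 to 0.718). These 3 of 9 genes were at least 1.5-fold lower in SW480 NC, beside 27.0% of all genes. At 2-fold 1 of 9 passed, ATXN7L3B, beside 28.1% of all genes in either direction, and at the threshold of 25% 5 of 9 passed, beside 70.5%. RNF168 was short of 1.5-fold in FPKM and in CPM (counts scaled to a common total) with TMM or RLE factors, which left 2 genes. With a pseudocount of 0.1 ATXN7 also passed, which made 4. Without a filter, or with one of 20 counts, USP51 was counted as well, higher in SW480 NC, which also made 4.

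ATXN7L3 and ATXN7 came just under 1.5-fold, with log2 ratios of -0.56 and -0.54 in SW480 NC over HCT116 NC. The TPM ratio of ATXN7 without a pseudocount, 0.663, was past that fold. The 4 partner genes ATXN7L3, ATXN7L3B, ENY2 and ATXN7 were thus all lower in SW480 NC. Of 2 relatives of ATXN7, ATXN7L1 was higher in SW480 NC (log2 ratio 1.52) and ATXN7L2 lower (-0.70). Of 13 further SAGA core genes, 8 were higher in SW480 NC and 5 lower, beside 46.7% of all genes higher. USP22 had a count ratio of 0.860 (0.822 to 0.899), RNF40 of 0.818 (0.769 to 0.870) and RNF20 of 0.913 (0.834 to 1.0005, which includes 1). USP27X was the gene above 1, at 1.07 (0.793 to 1.44). The values of USP22 and RNF20 depended on the scaling. The USP22 log2 ratio was -0.22 as reported, -0.12 in CPM with TMM or RLE factors and -0.31 from curated transcripts alone. For RNF20 it was -0.14 as reported and -0.03 in CPM with TMM or RLE factors. USP51 had too low a TPM in both controls to be counted. Its 22.3 counts in SW480 NC against 0 in HCT116 NC gave a ratio of 7.54 at the chosen floor of 3 counts. The exact interval, made from the count of 0, began at 5.55.

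**Figure D4:**
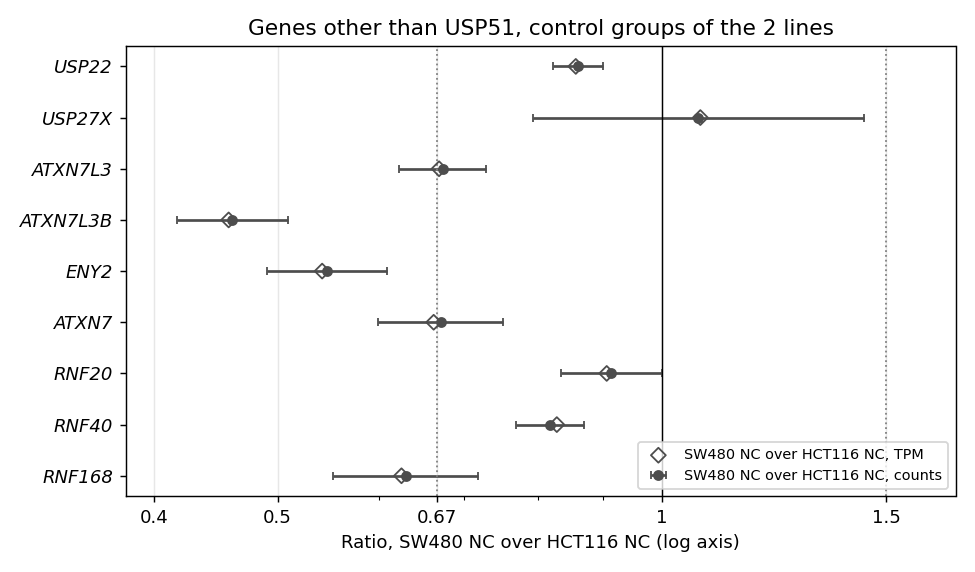
Ratio of SW480 NC over HCT116 NC on a log axis for the 9 genes other than USP51, from counts (filled, with 95% exact intervals for counting error) and TPM (open diamonds), with dotted lines at 1.5-fold. ATXN7L3B, ENY2 and RNF168 lie lowest, at count ratios of 0.461, 0.547 and 0.630, and USP27X is the gene above 1.

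The 10 genes had 24 transcripts in the table, and 3 genes had 1 each. How reads were divided among transcripts is an estimate, and no interval is given for it. ATXN7 was the most divided. Its transcript NM_001128149.3 took 30.2% of ATXN7 TPM in SW480 USP51 against 36.5% in SW480 NC, and 46.4% in HCT116 USP51 against 37.5% in HCT116 NC. The transcript NM_001377406.1 took 32.2% in SW480 USP51 against 24.3% in SW480 NC, and 36.6% in HCT116 USP51 against 47.1% in HCT116 NC. The 2 shares thus differed in opposite directions in the lines, and each ATXN7 transcript had at most 372 counts in any group.

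RNF40 was divided mainly among 3 transcripts. The predicted XM_024450500.1 had 157.0 counts in SW480 USP51 against 236.2 in SW480 NC, and 205.4 in HCT116 USP51 against 245.1 in HCT116 NC. The curated NM_001286572.3 had 627.8 counts in SW480 USP51 against 518.9 in SW480 NC. This shift toward 1 transcript and away from another accompanies the opposite sides of 1 on which the TPM and the counts of RNF40 lie in SW480. In the other 5 genes with several transcripts, 1 transcript held 87.3% or more of the TPM in each group where the gene was detected. ENY2 had a second transcript, NM_001193557.2, with 2.51% of its TPM in SW480 USP51 and 3.26% in SW480 NC, against 8.96% in HCT116 USP51 and 9.72% in HCT116 NC. It thus took a larger share in each HCT116 group than in either SW480 group.

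Exons of other genes overlap some of these transcripts on the opposite strand, and no source used here says whether counting used strand. The RNF40 transcript shares 567 bases with CCDC189 and 2096 bases with an unnamed locus, USP22 shares 504 and 394 bases with antisense RNAs, ATXN7L3B shares 375 bases, RNF168 82 bases and ENY2 62 bases with NUDCD1. If it did not, reads of the overlapping genes could not be told apart in these stretches. USP51, USP27X, ATXN7L3, ATXN7 and RNF20 had no such overlap.

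Beyond the 10 genes, 82 further genes of histone ubiquitination in 8 lists were examined, and 81 passed the minimum of 1 TPM in each comparison. None differed by 1.5-fold in either line, beside the 1.42% and 2.11% of all genes. In SW480 25 lay above and 56 below their control value, beside 61.1% of all genes below. Their median log2 ratio was -0.07, against -0.04 over all genes. In HCT116 48 lay above and 33 below, beside 60.8% of all genes above. The median was 0.02, against 0.04 over all genes. In the list of other H2A and H2B deubiquitinases, 13 of 15 lay below control in SW480, beside 61.1% of all genes. In HCT116 13 of 15 lay above it, beside 60.8%. The list medians were -0.09 and 0.06, close to the 9 genes described above. The medians of those 9 were nearer 0 in CPM, at -0.03 in SW480 with RLE factors and 0.01 in HCT116 with TMM factors. Other scales were not tried for this list. BAP1, the deubiquitinase of Polycomb-marked H2A, stood at 53.0 TPM in SW480 USP51 against 66.5 TPM in SW480 NC, the lowest ratio of that list (count ratio 0.823, 0.774 to 0.874). USP49, an H2B deubiquitinase, was the highest of the list in HCT116, at 4.31 TPM with USP51 against 3.27 TPM in NC (log2 ratio 0.31).

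Among the PRC1 genes, which encode the Polycomb complex that ubiquitinates H2A, PHC3 had the lowest ratio of the 81 genes in SW480. It stood at 12.1 TPM in SW480 USP51 against 18.6 TPM in SW480 NC, a log2 ratio of -0.58 that is just short of 1.5-fold. Its TPM ratio without a pseudocount, 0.651, was past that fold, while its count ratio, 0.702 (0.641 to 0.769), was short of it. PHC3 stood at 12.7 TPM in HCT116 USP51 against 11.9 TPM in HCT116 NC. TP53BP1, which encodes a reader of the RNF168 mark, stood at 6.94 TPM in SW480 USP51 against 8.33 TPM in SW480 NC and at 20.7 TPM in HCT116 USP51 against 16.9 TPM in HCT116 NC. UBE2V2, a cofactor of the conjugating enzyme UBE2N, had the highest ratio in SW480, at 118.2 TPM with USP51 against 103.3 TPM in NC.

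The remaining SAGA subunits and the H2B cofactors differed little. In the SAGA core list, 5 of 13 genes lay above control in SW480 and 3 of 13 in HCT116, beside 38.8% and 60.8% of all genes. The list median was -0.07 in each line. SF3B5, a subunit shared with the splicing machinery, was the highest of it in SW480 and the lowest in HCT116, at log2 ratios of 0.15 and -0.22. The acetyltransferase gene KAT2A stood at 80.2 TPM in SW480 USP51 against 76.2 TPM in SW480 NC, and at 39.0 TPM in HCT116 USP51 against 41.5 TPM in HCT116 NC. Among partners of H2B ubiquitination, 2 of 10 lay above control in SW480 and 5 of 10 in HCT116, beside the same 38.8% and 60.8%. CDC73, a subunit of the PAF1 complex, was the lowest of these partners in HCT116, at a log2 ratio of -0.24. Among the ubiquitin and E1 genes, the log2 ratio was -0.07 for UBB and 0.10 for RPS27A in SW480, and 0.07 for UBA1 in HCT116.

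Other genes at the top or bottom of the lists also stayed short of 1.5-fold. In SW480 the log2 ratio was -0.27 for KAT2B, -0.26 for TAF9B, 0.10 for SKIC8, -0.18 for CTR9, 0.15 for CBX2, 0.13 for USP3, -0.16 for ATXN7L1 and 0.19 for ATXN7L2. In HCT116 it was 0.20 for TADA3, 0.13 for SUPT3H, 0.11 for UBE2B, -0.11 for PCGF1, -0.20 for USP21, 0.02 for ATXN7L1 and -0.03 for ATXN7L2. ATXN7L1 and ATXN7L2, relatives of ATXN7, thus lay on opposite sides of their control value in each line.

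**Figure D5:**
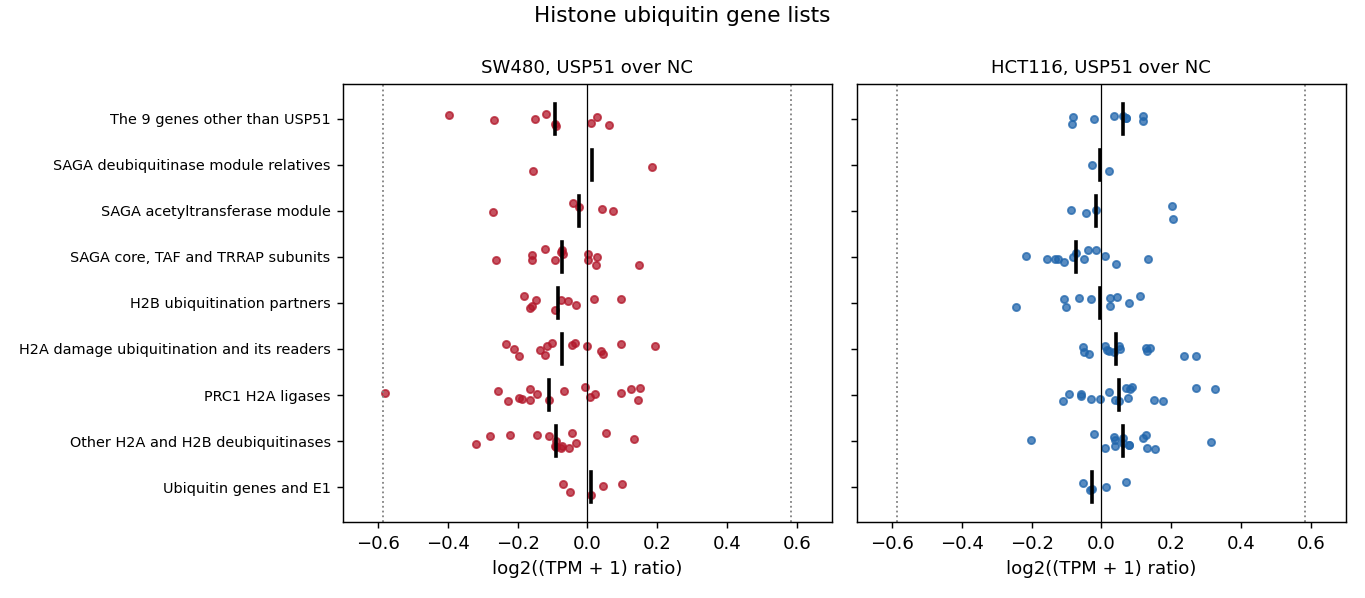
The log2 ratio of TPM + 1, USP51 over NC, of each gene in the 9 genes other than USP51 and in 8 further lists, in SW480 (left) and HCT116 (right), with black bars at list medians and dotted lines at 1.5-fold. No gene crosses a dotted line, and PHC3 at -0.58 in SW480 is the point nearest to it.

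Genes whose 4 group means were most like those of USP51 were sought by Pearson's r of log2(TPM + 1) over the 4 means, of at least 0.9. This held for 60 of 13236 genes, and with 4 points r is a description only. Ranked by the smaller of the 2 within-line log2 ratios, the first was CA9 (r = 0.94), a carbonic anhydrase gene, whose smaller ratio was 1.22. It was followed by SIX2 (0.34), TMC6 (0.30), PGK1 (0.30) and ALPL (0.29), all far below the USP51 log2 ratios of 4.14 and 5.39. SIX2 stood at 1.14 TPM in SW480 USP51 and 1.68 TPM in HCT116 USP51, and ALPL at 1.33 and 1.90 TPM. Both lay below 1 TPM in each control, so they reached the minimum of 1 TPM only in the overexpressing groups. PGK1, a glycolysis enzyme gene, stood at 257.6 TPM in SW480 USP51 against 209.2 TPM in SW480 NC, and at 259.9 TPM in HCT116 USP51 against 184.2 TPM in HCT116 NC. With 5 of 13236 genes named, the absence of the other 9 histone ubiquitin genes from the 5 says nothing about them.

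Markers were read for the labelled cell type. Epithelial genes EPCAM, KRT8, KRT18 and KRT19 were at 381.7 TPM or more in all 4 groups. CDH1, the epithelial cadherin gene, was lower in SW480, at 7.19 TPM in SW480 USP51 and 9.40 TPM in SW480 NC against 41.5 TPM in HCT116 USP51 and 33.4 TPM in HCT116 NC. VIL1, a brush border gene, was at 12.5 TPM in SW480 USP51 and 7.55 TPM in SW480 NC and near 0 in HCT116, at 0.0200 TPM in HCT116 USP51 and 0.0300 TPM in HCT116 NC. Of 8 markers of leukocytes, endothelium and fibroblasts, 2 reached 1 TPM, CD68 and COL1A1. The summed level of the 8 was 5.65 TPM in SW480 USP51, 6.15 TPM in SW480 NC, 22.2 TPM in HCT116 USP51 and 17.1 TPM in HCT116 NC. COL1A1 alone was at 1.33, 1.58, 15.1 and 9.95 TPM in these groups, in that order. CD68 was at 3.98, 4.19, 6.62 and 6.96 TPM, so these genes made up nearly all of each sum. The part of the 8 markers in the results was not tested. PTPRC, the pan-leukocyte marker, was at or below 0.0333 TPM in every group.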

How the data were processed

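The deposited table holds, per the file headers, estimated counts, TPM and FPKM values per RefSeq transcript, averaged by the authors over each group. The counts need not be whole, and the TPM and FPKM values were scaled by the authors to length and depth. TopHat and DESeq 1.32.0 with the hg38 build appear, without a role, per the submitters' processing notes. The counting tool and any use of strand are not named there. Left out were the 36 single-library columns.

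The 84345 rows were summed per gene identifier, and 17672 of 17818 identifiers had a RefSeq symbol (GRCh38.p14). Because means replace libraries, the edgeR quasi-likelihood tests fixed for mapped libraries were not run, and no p-value is given. In their place, log2 ratios of TPM + 1 among genes of at least 1 TPM in 1 of the groups compared, fold counts, and ratios of counts (rounded) with Clopper-Pearson intervals given each pair's summed count (exact, scipy 1.17.1) were computed. Intervals and floors of 3 counts hold counting error alone, and copies made by PCR are not separate molecules. The interval code was tested on simulated data. Scaling factors came from edgeR 4.0.16 (R 4.3.3). Coding sequences came from GENCODE release 29 transcripts (GRCh38), for the deposited transcript with the highest TPM that has a match by identifier, and were aligned with biopython 1.88 and mafft 7.526.

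Members and lists were chosen with earlier results of these data known. Named were the members, each further list's genes past 1.5-fold and its highest and lowest in each line, the 5 genes most like USP51, and transcripts with at least 5% of a gene's TPM. Some items under that rule are not reported here.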

Additional observations from a re-analysis of the deposited data

How the results depend on the processing

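Directions of USP51 held under every scaling tried, but its log2 ratio depended on the scale. In SW480 it was 4.14 as reported and 5.39 with a pseudocount of 0.1. In CPM it was 4.94 without factors, 4.97 with TMM, 4.97 with RLE and 4.94 with upper-quartile factors. In HCT116 it was 5.39 as reported, 8.68 with a pseudocount of 0.1, 6.37 with 0.5 and 4.79 in FPKM. In CPM it was 6.79 without factors, 6.73 with TMM, 6.73 with RLE and 6.78 with upper-quartile factors. The USP51 share of the 3 related genes was 24.1% in SW480 USP51 and 28.03% in HCT116 USP51 from CPM, whatever the factors, and 28.2% in SW480 USP51 from curated transcripts alone. The count of genes past the threshold was 2 in SW480 at the threshold of 25% (USP51 and RNF168). Between controls it was 1 at 2-fold and 5 at the threshold of 25%.

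Of the 27 log2 ratios of the other 9 genes, 25 kept their sign under all 8 alternatives of scale. The exceptions, ATXN7L3B in HCT116 (-0.02 to 0.04) and RNF40 in SW480 (-0.09 to 0.04), lie near 0. A change of pseudocount cannot change a sign, so those alternatives add nothing to that count. Nor does the use of curated transcripts alone for a gene that has no others. Of the 216 values, 8 moved beyond the counting interval, 5 for RNF40 in SW480 and 3 for USP22 between controls. No paired analysis was possible because only group means could be tied to groups. For the same reason, leaving out replicates and DESeq2 were not run.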
